A study of Mus musculus with 6 samples.

Results

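The genes described here make and sense prostaglandins, with the inducible cyclooxygenase Ptgs2 at their centre. They are 10 genes of the 26529 in the table, found by symbol: Pla2g5, Ptgs1, Ptgs2, Ptges, Ptges2, Ptges3, Tbxas1, Akr1c18, Ptger2 and Ptger4. They were chosen with the difference between the groups already known, so their values in that comparison are a description and carry no test. The libraries came from bone marrow of wild type C57BL/6 mice, 8 weeks old, which the labels call bone marrow-derived macrophages. Every culture received M-CSF (20 ng/ml), which keeps macrophages alive, and RANKL (10 ng/ml), which turns such precursors into osteoclasts, so neither group is an untreated control. Osteoclast precursors (OCP) were collected on day 3, and osteoclasts (OC), large cells with several nuclei that dissolve bone, on day 6, with 3 libraries per group. Setting OC against OCP asks which transcripts differ between these stages. No label ties a library to a mouse or a culture, so p-values measure the spread between these libraries, which may be technical.

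Prostaglandins are short-lived lipid signals made from arachidonic acid. Phospholipases release the acid from membranes, a cyclooxygenase turns it into an unstable intermediate, and terminal synthases convert that into prostaglandin E, prostacyclin, thromboxane and related products. Prostaglandin E acts through the EP receptors, of which those encoded by Ptger2 and Ptger4 raise cyclic AMP. In bone it is known both to stimulate resorption, largely through osteoblasts that then make RANKL, and to act on cells of the osteoclast lineage directly.

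Values are RPKM, reads per kilobase of exon scaled to the reads assigned to genes in a library, so levels of different genes can be set side by side. The libraries held 33219178 to 42121216 reads assigned to genes. Osteoclast markers were present in both groups but lower in the libraries labelled OC: all 13 tested markers were called lower (limma, adjusted p under 0.05), among them Ctsk, the collagen-degrading cathepsin, from 3249 ± 108 to 1711 ± 25.0 RPKM (SD, n = 3). Of 11 tested macrophage and monocyte markers 9 were called higher and 2 lower, with Lyz2 the most abundant and Cx3cr1 the most changed. The 2 lower markers were Csf1r, from 192 ± 6.38 to 165 ± 6.07 RPKM, and Cd68, from 854 ± 31.3 to 721 ± 20.85 RPKM. The summed level of the macrophage list was 5201 to 5653 RPKM in OCP and 8191 to 8715 RPKM in OC. Lyz2 alone made up most of this sum, at 4080 ± 270 and 7197 ± 264 RPKM. In bulk RNA, fewer cells of a type and less RNA per cell cannot be told apart. The 12 stromal and osteoblast markers in the table summed to 3.49 to 3.64 RPKM in OCP and 3.39 to 3.69 RPKM in OC. None of them reached the filter of 1 RPKM in at least 3 libraries. Of the macrophage markers called higher, Cx3cr1, Mrc1 and Ccr2 passed this filter through the OC libraries alone.

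Over all genes, 12301 passed this filter and were tested, of which 2889 (23.5%) were called higher and 3954 (32.1%) lower in OC, 55.6% in all. Of the 10 prostaglandin genes 9 passed the filter and Ptger2 did not. Ptgs1 and Pla2g5 passed through the OC libraries alone, since their OCP values were all under 1 RPKM. Among the 9, the OC libraries lay wholly above the OCP libraries for 5 and wholly below for 3, against 26.7% and 36.0% of all tested genes (62.7% in either direction). The members were chosen on this contrast, so nothing is read from these shares.

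**Figure D1:**
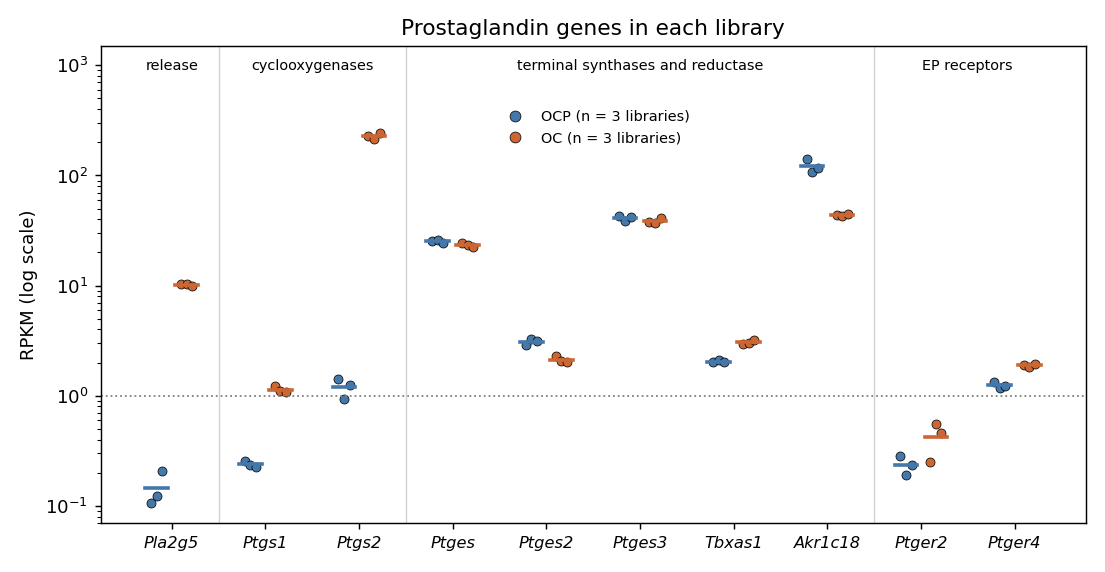
RPKM of the 10 prostaglandin genes in each library, on a log axis, with OCP (culture day 3) in blue and OC (culture day 6) in orange. Points are libraries, bars are group means of 3 libraries, and the dotted line marks 1 RPKM; Ptgs2 and Pla2g5 stand far apart between the groups, at mean ratios of 189 and 70.2, while the OC means of Ptges and Ptges3 are 0.930 and 0.945 of their OCP means.

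The promoters of the cyclooxygenase genes and of the other members with the largest difference in each direction, Pla2g5 and Akr1c18, are shown because the values below turn on these genes. RefSeq (GRCm38.p6) held a start for all 10 members, 11 starts in all because Pla2g5 has a pair of them. The 250 bases before each start are printed 5′ to 3′ on the gene's strand: chr1:150099781-150100030 on the plus strand for Ptgs2, chr2:36230176-36230425 on the plus strand for Ptgs1, chr4:138863470-138863719 on the minus strand for Pla2g5 (its start farther upstream) and chr13:4150647-4150896 on the minus strand for Akr1c18. Capitals mark matches to any of 7 motifs.
Ptgs2: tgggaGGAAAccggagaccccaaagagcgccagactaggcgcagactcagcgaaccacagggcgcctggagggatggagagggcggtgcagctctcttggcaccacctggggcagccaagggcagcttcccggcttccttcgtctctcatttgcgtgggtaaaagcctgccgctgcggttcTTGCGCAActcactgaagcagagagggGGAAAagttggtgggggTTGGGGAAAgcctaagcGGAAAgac
Ptgs1: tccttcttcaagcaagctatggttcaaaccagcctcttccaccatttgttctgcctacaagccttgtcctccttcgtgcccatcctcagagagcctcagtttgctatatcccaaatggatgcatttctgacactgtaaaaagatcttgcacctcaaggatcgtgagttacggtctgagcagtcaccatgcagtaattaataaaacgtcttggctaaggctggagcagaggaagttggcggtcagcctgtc
Pla2g5: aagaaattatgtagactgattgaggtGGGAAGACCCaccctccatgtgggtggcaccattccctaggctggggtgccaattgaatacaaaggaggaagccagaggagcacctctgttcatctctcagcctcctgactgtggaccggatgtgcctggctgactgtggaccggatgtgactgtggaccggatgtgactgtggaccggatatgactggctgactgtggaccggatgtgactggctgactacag
Akr1c18: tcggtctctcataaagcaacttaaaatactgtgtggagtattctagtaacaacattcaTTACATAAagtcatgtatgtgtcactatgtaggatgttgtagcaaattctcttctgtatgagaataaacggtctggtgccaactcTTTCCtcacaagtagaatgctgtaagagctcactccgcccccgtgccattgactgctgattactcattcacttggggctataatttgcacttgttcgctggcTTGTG

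The motifs were searched on both strands over 300 bases, 250 before and 50 after the start. They were the TATA box TATAAA (in 13.6% of 32851 RefSeq promoters of this length), the E box CACGTG (7.15%), the cyclic AMP element half-site CGTCA (20.8%), the NF-kB site, GGGA and CC with 4 bases between them (20.7%), the C/EBP site TTNNGNAA (40.7%), the NFAT core GGAAA (61.3%) and the AP-1 site TGANTCA (7.81%). The Ptgs2 promoter held C/EBP matches 69 and 25 bases before the start, TTGCGCAA and TTGGGGAA, the former reading the same on both strands. It held 4 NFAT cores, of which the core 21 bases before the start overlaps the C/EBP match at 25. A half-site for cyclic AMP and an E box began 14 and 17 bases after the annotated start, where they overlap each other. In the Ptgs1 window none of the 7 motifs matched, in that of Pla2g5 only an NF-kB match, GGGAAGACCC, 224 bases before the start, and in that of Akr1c18 C/EBP and NFAT matches. Such matches are letters in a window and do not show binding.

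Pla2g5 encodes a secreted phospholipase that can release arachidonic acid, and its gene is on chromosome 4 (minus strand, 138799244 to 138863482, GRCm38). Its level in OCP replicates 1, 2 and 3 was 0.107, 0.122 and 0.208 RPKM, from 13, 14 and 22 reads. In the OC libraries it was 10.3, 10.4 and 9.94 RPKM, from 1044, 994 and 1093 reads. Every OC library was thus far above every OCP library, and the OC libraries were close to each other. The group means were 0.146 ± 0.0542 and 10.2 ± 0.240 RPKM, a ratio of 70.2. On the log2(RPKM + 1) scale the difference was 3.29, and 6.21 in a voom fit on recovered reads, because a pseudocount of 1 understates changes from so low a level. By the log2(RPKM + 1) difference its rank in size of rise was 39 among the 12301 tested genes.

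Ptgs2, the cyclooxygenase that inflammatory stimuli switch on, is a gene of chromosome 1 (plus strand, 150100031 to 150108227). The OCP libraries held 274, 170 and 212 of its reads, or 1.42, 0.935 and 1.26 RPKM. The OC libraries held 36648, 32712 and 42083 reads, or 229, 215 and 241 RPKM. The lowest OC value was 151 times the highest OCP value. By level the gene went from place 11394 of all genes in OCP to place 266 in OC. Only 1 tested gene had a larger rise on the log2(RPKM + 1) scale, where the difference of Ptgs2 was 6.70.

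Ptgs1 encodes the other cyclooxygenase, usually expressed without a stimulus, from chromosome 2 (plus strand, 36230426 to 36252272). Its RPKM was 0.257, 0.233 and 0.224 in OCP and 1.23, 1.11 and 1.08 in OC. The groups did not overlap, and the ratio of means was 4.78 (0.238 ± 0.0167 to 1.14 ± 0.0784 RPKM). It rests on few reads, 110 over the OCP libraries and 470 over the OC libraries. An antisense gene, Gm43621, shares 148 bases (3.81%) of its exon length, and the use of strand in counting is not given in the sources used here. Platelets are rich in Ptgs1, and of the 9 megakaryocyte and platelet markers in the table only Pf4 passed the filter. Pf4, which macrophages can also express, was called higher, from 36.1 ± 0.567 to 89.2 ± 1.09 RPKM (limma adjusted p = 1.6e-07), while the other 8 stayed under the filter. Of those, Itga2b (0.0284 and 0.104 RPKM on average), Gp1ba (0.338 and 0.427 RPKM) and Ppbp (0.316 and 0.537 RPKM) had every OC library above every OCP library, and Gp5 was above 0 in only 1 library. The part of platelet RNA in the values of Ptgs1 was not tested.

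Both cyclooxygenases together gave 1.68, 1.17 and 1.48 RPKM in OCP and 230, 216 and 242 RPKM in OC. Ptgs2 made up 84.7%, 80.0% and 84.9% of this sum in OCP and 99.5%, 99.5% and 99.6% in OC. Ptgs2 was thus the larger part in every library, also on day 3.

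The terminal synthases of prostaglandin E had much closer values in the groups. Ptges, the microsomal synthase that usually works with Ptgs2 (chromosome 2, minus strand, 30889471 to 30929863), was at 25.3, 25.8 and 24.5 RPKM in OCP and 24.5, 23.4 and 22.5 RPKM in OC. The lowest OCP value was just above the highest OC value, and the groups overlapped under TMM scaling and quantile normalization. The means differed by a ratio of 0.930, from 25.2 ± 0.637 to 23.4 ± 1.01 RPKM. Ptges2, a membrane-associated synthase (chromosome 2, plus strand, 32395896 to 32405772), was at 2.90, 3.26 and 3.12 RPKM in OCP and at 2.29, 2.08 and 2.03 RPKM in OC. Its OC libraries were all below its OCP libraries, at a ratio of means of 0.689. Ptges3, a cytosolic synthase better known as the p23 cochaperone, is encoded on chromosome 10 (plus strand, 128058954 to 128077272). Its OCP values of 42.5, 38.5 and 41.7 RPKM overlapped its OC values of 37.5, 37.4 and 41.1 RPKM. The pseudogene Gm11893, 94.3% identical over 495 bases, was at 0.387 to 0.665 RPKM, and a second copy, Ptges3-ps, was not analysed here.

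The 3 synthases summed to 69.2 ± 1.55 RPKM in OCP and 64.2 ± 1.37 RPKM in OC, and Ptges was 36.5% of it in both groups, with an SD of 1.53 and 2.02 percentage points. Set beside the cyclooxygenase, Ptgs2 was at 0.0362 to 0.0562 of the level of Ptges in OCP and at 9.18 to 10.7 times that level in OC. The order of Ptgs2 and Ptges was thus opposite in the groups, through the value of Ptgs2.

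Tbxas1, the synthase of thromboxane, is on chromosome 6 (plus strand, 38875404 to 39084585). Its OCP libraries had 2.03, 2.09 and 2.01 RPKM and its OC libraries 2.97, 3.02 and 3.18 RPKM. No OC library reached down to the OCP range, and the ratio of means was 1.49. The receptor of thromboxane, Tbxa2r, was listed above 0 in 1 OCP library alone, at 0.0286 RPKM.

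Akr1c18 is an aldo-keto reductase best known for the inactivation of progesterone, with activity on prostaglandins (chromosome 13, minus strand, 4132615 to 4150654). It was the most abundant of the 10 genes in OCP, at 141, 107 and 117 RPKM. The OC libraries had 43.9, 42.5 and 45.0 RPKM, all well below. The means were 121 ± 17.7 and 43.8 ± 1.26 RPKM, so OCP was 2.77 times OC, and the spread was wider in OCP, where replicate 1 was highest. The difference on the log2(RPKM + 1) scale was -1.44, and 9 tested genes had a larger fall. Its relative Akr1c6, 85.3% identical over 218 bases, was at no more than 0.0326 RPKM in any library.

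The receptors were low in both groups. Ptger4, the EP4 receptor on the minus strand of chromosome 15 (5206661 to 5244187), was at 1.34, 1.18 and 1.23 RPKM in OCP and 1.91, 1.84 and 1.94 RPKM in OC. The groups were apart at a ratio of means of 1.52. Antisense genes share its exons: Gm15937 over 1015 bases (15.3% of the length), at no more than 0.0488 RPKM, and Ttc33 over 82 bases, at 12.6 to 15.2 RPKM. Ptger2, the EP2 receptor on the plus strand of chromosome 14 (44988195 to 45003820), was at 0.284, 0.191 and 0.236 RPKM in OCP and 0.248, 0.556 and 0.463 RPKM in OC. OC replicate 1 lay within the OCP range, and the whole gene rests on 28 to 68 reads per library. Ptger4 was the larger part of the sum of both in every library, at 84.1% ± 1.77 in OCP and 82.0% ± 5.93 in OC.

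In OCP the order of levels ran from Akr1c18 through Ptges3, Ptges, Ptges2 and Tbxas1 to Ptger4 and Ptgs2, whose values overlapped, then Ptgs1 and Ptger2, which overlapped, and Pla2g5, which overlapped Ptger2. In OC it ran from Ptgs2 through Akr1c18, Ptges3, Ptges, Pla2g5, Tbxas1, Ptges2, Ptger4 and Ptgs1 to Ptger2, with no overlap between neighbours in this order.

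Genes beside Ptgs2 on the chromosome were then examined, since position played no part in choosing the members. The window of 500 kb to each side of its start held 9 other genes of the table, of which 5 passed the filter. Pla2g4a, the cytosolic phospholipase that releases arachidonic acid for both cyclooxygenases, lies on the minus strand (149829618 to 149961290) and starts 138740 bases before the start of Ptgs2, from which it is transcribed away. It was at 9.94, 8.05 and 8.52 RPKM in OCP and 15.7, 16.2 and 18.7 RPKM in OC, and was called higher (log2 fold change 0.86, SE 0.09, limma adjusted p = 0.00011). Ptgs2os2, a long noncoding RNA on the minus strand (150159043 to 150164948) whose 3′ end lies 50815 bases past the end of Ptgs2, was also called higher. Its level went from 0.217 ± 0.0962 to 1.80 ± 0.138 RPKM (log2 fold change 1.20, SE 0.08, limma adjusted p = 1.3e-05), on 44 and 335 reads per group. Ptgs2os2 passed the filter through the OC libraries alone, so a high OC value was needed for it to be tested. With any 1 of the OC libraries left out it had too few values of 1 RPKM to be tested.

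Among the genes that were not tested, Ptgs2os lies on the minus strand and is transcribed away from Ptgs2, with its own start 67 bases before that of Ptgs2. It had 6 reads over the OCP libraries and 133 over the OC libraries (0.402, 0.229 and 0.236 RPKM). The processed pseudogene Gm9687, 37740 bases past the end of Ptgs2, had 0 reads in every OCP library and stood at 0.522, 0.500 and 0.349 RPKM in OC. The groups of the farther genes overlapped. Tpr, a nuclear pore protein, was at 43.6 ± 6.30 and 40.3 ± 5.04 RPKM (limma adjusted p = 0.48), BC003331 at 8.19 ± 1.36 and 7.78 ± 1.20 RPKM (limma adjusted p = 0.71) and Gm15453 at 2.04 ± 0.746 and 2.64 ± 0.597 RPKM (limma adjusted p = 0.28).

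**Figure D2:**
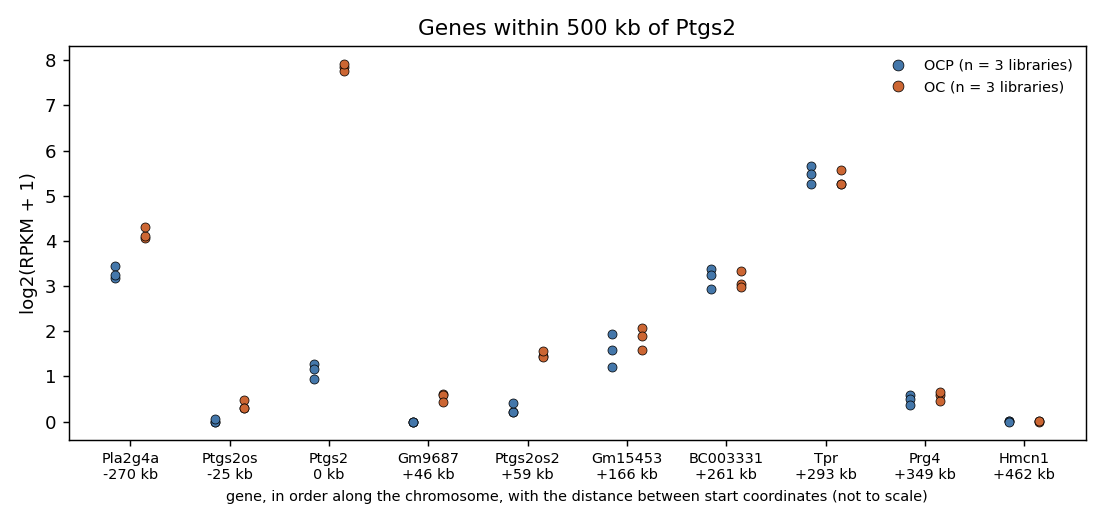
Levels of Ptgs2 and the 9 genes of the table within 500 kb, as log2(RPKM + 1) per library, in order along the chromosome; labels give the distance between the lower coordinates of the genes. Ptgs2, Pla2g4a, Ptgs2os, Gm9687 and Ptgs2os2 have every OC library above every OCP library, and the 5 genes from 166 kb onward overlap.

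The rest of the pathway was read from 7 lists of genes that are not members. These lists were chosen with earlier results of these data known, so the shares called are a description. Of their 82 tested genes 35 (42.7%) were called higher and 23 (28.0%) lower, against 23.5% and 32.1% of all tested genes. The median log2 fold change was 0.04 against -0.05. Pla2g2e, Akap12 and Tia1, all called higher, passed the filter through the OC libraries alone, so a high OC value was needed for them to be tested. Slco3a1, which was not called, passed through the OCP libraries alone. For the release and re-esterification of arachidonic acid, 8 of 17 tested genes were called higher and 4 lower (median 0.13). The largest change was that of Pla2g2e, a secreted phospholipase. It was at 0.518, 0.549 and 0.416 RPKM in OCP and 4.67, 3.78 and 4.35 RPKM in OC (log2 fold change 1.82, SE 0.08, limma adjusted p = 1.5e-06). Pla2g7, which breaks down platelet-activating factor and was the most abundant of the list, rose from 165 ± 6.09 to 300 ± 2.84 RPKM (0.86, SE 0.04, limma adjusted p = 2.2e-06). An antisense gene covers 319 bases of its exons. Lpcat1, an enzyme that re-esterifies lysophospholipids, went down from 35.6 ± 0.823 to 22.1 ± 0.883 RPKM (-0.67, SE 0.05, limma adjusted p = 1.7e-05). Other acyltransferases of the list went either way. Lpcat3 was called lower, from 5.13 ± 0.351 to 4.02 ± 0.207 RPKM (limma adjusted p = 0.0066). Lpcat2 went up from 11.7 ± 0.418 to 16.6 ± 0.268 RPKM (limma adjusted p = 9.4e-05) and Mboat7 from 1.02 ± 0.0420 to 1.58 ± 0.0950 RPKM (limma adjusted p = 0.0023).

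Of the other prostanoid synthases 2 of 7 were called higher and 3 lower (median -0.11). Akr1b3, an aldose reductase with prostaglandin F synthase activity, rose from 9.41 ± 0.272 to 32.0 ± 0.807 RPKM (log2 fold change 1.66, SE 0.05, limma adjusted p = 8.7e-08). Hpgds, the hematopoietic synthase of prostaglandin D, rose from 2.74 ± 0.487 to 5.02 ± 0.873 RPKM (0.69, SE 0.13, limma adjusted p = 0.0025). Akr1b8, of the family of Akr1b3, fell from 286 ± 3.05 to 172 ± 7.75 RPKM (-0.74, SE 0.05, limma adjusted p = 7.4e-06), and Akr1c13, of the family of Akr1c18, from 49.6 ± 3.35 to 31.8 ± 1.24 RPKM (-0.63, SE 0.06, limma adjusted p = 7.0e-05). Akr1c13 is 94.5% identical to Akr1c12 over 1262 bases, and Akr1b3 has pseudogenes more than 99% identical, so reads between such copies are uncertain.

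Transport and breakdown had 2 of 7 genes called higher and 1 lower (median -0.11). Abcc4, an exporter that carries prostaglandin E out of cells, rose from 5.21 ± 0.152 to 7.41 ± 0.102 RPKM (log2 fold change 0.44, SE 0.05, limma adjusted p = 0.00021). Ptgr1, a reductase that inactivates prostaglandins and leukotriene B, was the most abundant and fell from 28.6 ± 2.21 to 19.7 ± 0.954 RPKM (-0.52, SE 0.07, limma adjusted p = 0.00033). The exporter Abcc1 went from 20.5 ± 0.414 to 22.6 ± 0.567 RPKM (0.14, SE 0.04, limma adjusted p = 0.030). Its call was lost with the replicate number as a block (adjusted p = 0.060) and when any of OC replicates 1 and 2 and OCP replicates 1 and 3 was left out (adjusted p 0.062 to 0.0995). Hpgd, the main enzyme of prostaglandin breakdown, was listed at 0 in every OCP library, with values of 0, 0.0715 and 0.0935 RPKM in OC.

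Among the other prostanoid receptors 3 passed the filter, 1 called higher and 2 lower (median -0.29). Ptgir, the prostacyclin receptor, was at 3.19, 3.52 and 3.94 RPKM in OCP and 6.90, 7.20 and 6.56 RPKM in OC (log2 fold change 0.80, SE 0.07, limma adjusted p = 6.4e-05). It was thus above Ptger4 and Ptger2 in every library. Ptgfrn, a protein that binds the prostaglandin F receptor, fell from 1.71 ± 0.0734 to 1.21 ± 0.0755 RPKM (-0.29, SE 0.06, limma adjusted p = 0.0059). Ptger1, the EP1 receptor, is the other gene counted as lower, but its reads are uncertain without the strand setting and its level is not given. Ptger3, Ptgfr and Ptgdr2 had no value above 0.137 RPKM.

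Of the leukotriene and lipoxygenase genes 4 of 8 were called higher and 2 lower (median 0.29). Alox5ap, the protein that presents arachidonic acid to the lipoxygenase Alox5, was the most abundant and rose from 67.1 ± 0.805 to 103 ± 4.06 RPKM (log2 fold change 0.61, SE 0.04, limma adjusted p = 1.9e-05), while Alox5 itself was at 2.04 ± 0.145 and 1.98 ± 0.289 RPKM and was not called. The epoxide hydrolases moved apart. Ephx1 rose from 3.55 ± 0.0923 to 9.21 ± 0.934 RPKM (1.16, SE 0.07, limma adjusted p = 9.2e-06) and Ephx2, which hydrolyses epoxides of arachidonic acid, fell from 6.74 ± 0.328 to 3.05 ± 0.411 RPKM (-0.94, SE 0.08, limma adjusted p = 4.7e-05). Dpep2, a dipeptidase of leukotriene metabolism, rose from 3.85 ± 0.0652 to 7.11 ± 0.725 RPKM, and the glutathione transferase Mgst3 fell from 13.1 ± 0.987 to 6.75 ± 0.813 RPKM.

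Downstream of EP2 and EP4, 12 of 25 tested genes of cyclic AMP signalling were called higher and 6 lower (median 0.19), none of them by 2-fold on the log2(RPKM + 1) scale. The adenylyl cyclase Adcy3 had the largest change on that scale and dropped from 19.1 ± 0.777 to 9.49 ± 0.369 RPKM (log2 difference -0.94, SE 0.05, limma adjusted p = 4.5e-06). Of its exon length 22.1% lies opposite Cenpo. By ratio of means Akap12 changed more, at 2.29, and so it did with a pseudocount of 0.01 (log2 difference 1.19 against -1.01 for Adcy3) and by voom (1.24 against -0.97). Anchoring proteins of protein kinase A rose, Akap12 from 0.682 ± 0.0733 to 1.56 ± 0.0289 RPKM (0.61, SE 0.07, limma adjusted p = 0.00016) and Akap13 from 7.92 ± 0.142 to 12.4 ± 0.0939 RPKM (0.59, SE 0.05, limma adjusted p = 2.5e-05). Akap12 passed the filter through the OC libraries alone. Crtc2, a coactivator of the cyclic AMP response factor, rose from 5.18 ± 0.479 to 7.54 ± 0.448 RPKM (0.47, SE 0.07, limma adjusted p = 0.0010). The most abundant gene, Prkar1a, a regulatory subunit of protein kinase A, was at 93.0 ± 0.348 and 92.7 ± 2.36 RPKM and was not called (limma adjusted p = 0.95).

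The last list held RNA-binding proteins of AU-rich elements and other RNA-binding proteins, some of which are known to control the decay of messages such as that of Ptgs2. Of its 15 tested genes 6 were called higher and 5 lower (median -0.02). Zfp36, which speeds decay, rose from 8.41 ± 0.0889 to 20.6 ± 0.347 RPKM (log2 fold change 1.20, SE 0.04, limma adjusted p = 4.4e-07). Its relative Zfp36l1 went from 2.12 ± 0.322 to 15.6 ± 0.657 RPKM (2.41, SE 0.08, limma adjusted p = 2.9e-07). Of the exon length of Zfp36l1, 56.0% lies opposite Gm26669, which was at 2.10 to 2.88 RPKM in OCP and 18.9 to 19.6 RPKM in OC. Rc3h1, which encodes Roquin, another decay factor, rose from 2.87 ± 0.10 to 5.26 ± 0.245 RPKM (0.69, SE 0.06, limma adjusted p = 3.9e-05). Zfp36l2, also related to Zfp36, was at 10.3 ± 0.458 and 9.91 ± 0.571 RPKM and was not called (limma adjusted p = 0.49). Khsrp was called lower, from 29.5 ± 2.47 to 25.25 ± 0.734 RPKM (limma adjusted p = 0.022). Elavl1 was called lower as well, from 6.23 ± 0.190 to 5.50 ± 0.235 RPKM (limma adjusted p = 0.047). The cold-inducible Cirbp fell from 6.06 ± 0.338 to 4.14 ± 0.192 RPKM (-0.46, SE 0.06, limma adjusted p = 0.00045), and the most abundant, Hnrnpa1, fell from 667 ± 32.9 to 570 ± 31.7 RPKM (-0.23, SE 0.06, limma adjusted p = 0.010).

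**Figure D3:**
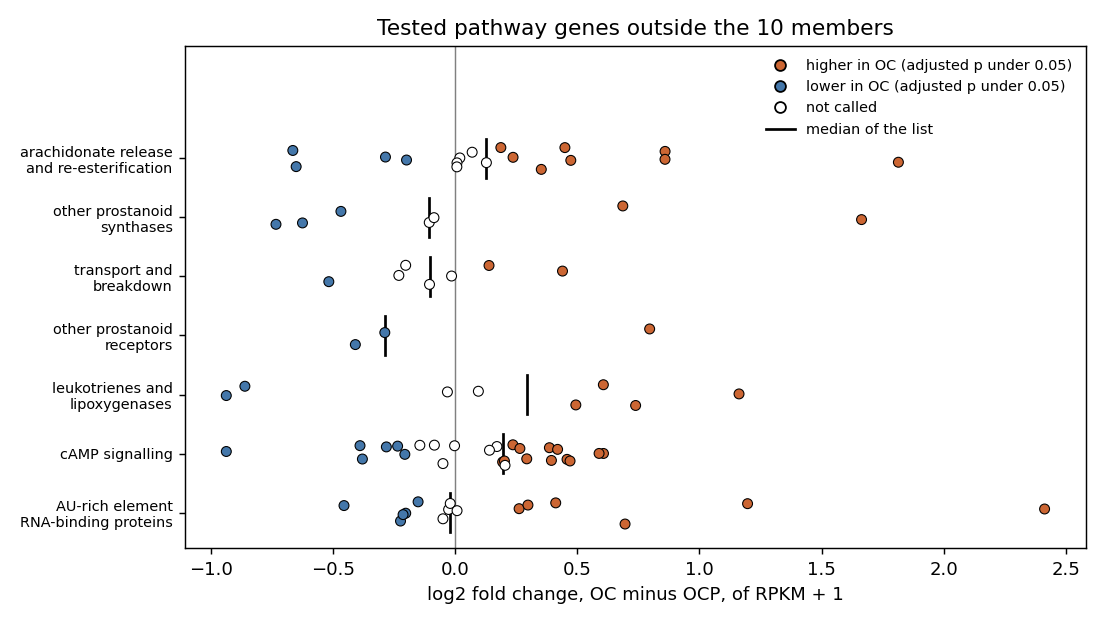
Log2 fold change (OC minus OCP, of RPKM + 1) of the 82 tested pathway genes outside the 10 members, 1 point per gene, in 7 lists, with vertical bars at the list medians. Orange points were called higher and blue points lower in OC (limma, adjusted p under 0.05), and Zfp36l1, Pla2g2e and Akr1b3 lie farthest to the right.

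Ptgs2 is itself an immediate early gene, so genes that respond to handling and stress were read beside it. Of 14 tested immediate early and heat shock genes 10 were called higher and 1 lower, and the summed level of the list was 1260 to 1382 RPKM in OCP and 1606 to 1680 RPKM in OC. Ier3 had the largest change, from 5.53 ± 0.691 to 51.4 ± 4.79 RPKM (log2 fold change 3.01, SE 0.09, limma adjusted p = 2.3e-07). The sizes differed widely, with ratios of means of 6.20 for Atf3 and 2.77 for Egr1, but 1.345 for Fos, 1.295 for Junb and 1.13 for Jun. Ier2, Hspa1a and Hsp90aa1 were not called, and Dnajb1 was the gene called lower. Hspa8 was the most abundant and the larger part of the sum, at 752 ± 20.7 and 909 ± 19.1 RPKM. Neutrophil markers were called higher in 4 of 4 tested cases, at summed levels of 40.6 to 45.2 RPKM in OCP and 57.8 to 64.0 RPKM in OC. Mmp8 had the largest change among them and S100a9 the highest level, and 7 markers stayed under the filter. Of these, the granule gene Ltf had every OC library above every OCP library (0.551 ± 0.0699 and 1.08 ± 0.110 RPKM). The groups overlapped, at the means given for OCP and OC, for Camp (0.353 and 0.473 RPKM), Mpo (0.0891 and 0.152 RPKM), Elane (0.0548 and 0.106 RPKM) and Prtn3 (0.0481 and 0.0342 RPKM). The part of these lists in the values of Ptgs2 was not tested.

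Finally, the profiles most like that of Ptgs2 were sought among 5198 tested genes with at least 10 RPKM in the higher group, by the distance between mean-centred log2(RPKM + 1) values over the 6 libraries. The nearest was Csf2, which encodes a colony-stimulating factor of granulocytes and macrophages, at a distance of 1.14. None of its reads were in the OCP libraries, and OC had 56.0, 55.5 and 53.2 RPKM. Next came Urah at 1.29 (0.746 ± 0.152 to 90.6 ± 3.96 RPKM), the protease inhibitor Spink5 at 1.51 (0.0271 ± 0.0281 to 45.7 ± 6.24 RPKM), the ribosomal protein pseudogene Rps2-ps10 at 1.57 and the granulocyte colony-stimulating factor Csf3 at 1.63 (2.96 ± 0.455 to 169 ± 6.67 RPKM). Antisense genes share exons of Csf2 and Urah. Rps2-ps10 is 98.1% identical over 939 bases to Rps2, which was at 315 to 331 RPKM in OCP and 168 to 179 RPKM in OC. It has further close copies, so the reads given to Rps2-ps10 are uncertain.

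For Akr1c18 the nearest profile was that of Angpt2, an angiopoietin, at a distance of 0.29, with 20.9 ± 0.773 RPKM in OCP and 6.97 ± 0.568 RPKM in OC. It was followed by the processed pseudogene Gm20056 at 0.33, Mustn1 at 0.38, Trim54 at 0.41 and the ubiquitin hydrolase Uchl1 at 0.48. With 3 libraries per group these distances rest mainly on the size of the difference between groups. Gm20056 is 97.5% identical to Chp1 over 519 bases, so its reads are uncertain as well.

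**Figure D4:**
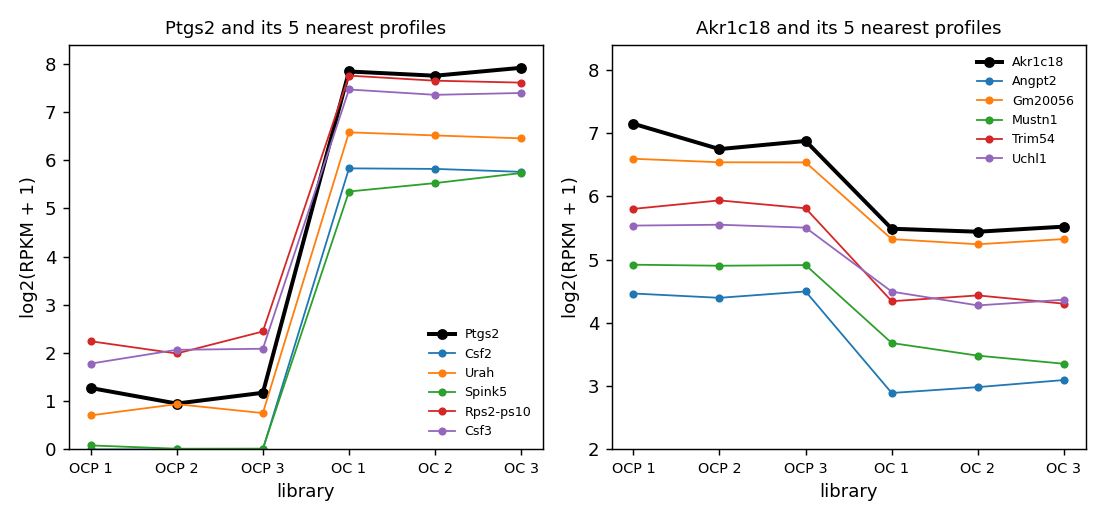
Levels of Ptgs2 (left) and Akr1c18 (right) in the 6 libraries, as log2(RPKM + 1), each in black with its 5 nearest profiles; lines join libraries only to guide the eye. All 6 profiles on the left are high in the OC libraries, and Csf2 starts from 0, while those on the right are lower in all OC libraries.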

How the data were processed

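RNA-seq of 6 libraries was analysed, 3 of OCP and 3 of OC. Per the labels' protocols, RNA was extracted with TRIzol and 2 ug went into a stranded mRNA kit. Per the submitters' processing notes, reads were processed with Trimmomatic 0.36, STAR 2.5.3a and featureCounts. The authors deposited RPKM values; the strand setting and the handling of reads that map to several places are not given in the sources used here. The notes name GRCh38, but coordinates are those of mouse genes, and 22288 genes had the same start and end in GENCODE M21 (GRCm38).

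RPKM times exon length came out as whole reads, within 0.01 reads, in 100% of values. Values were tested as log2(RPKM + 1) in limma 3.58.1 (R 4.3.3) with trend and robust options, two-sided, for genes that reached 1 RPKM in 3 or more libraries. P-values were adjusted by Benjamini-Hochberg over 12301 genes, threshold 0.05. Only the limma fit was tested on simulated reads, in which far fewer genes changed than were called here. Near-identical copies were sought with blastn 2.17.0 (85% identity or more over 200 bases or more). Members and lists were chosen with earlier results of these data known. Named genes were the members, tested neighbours of Ptgs2, and, per pathway list, up to 4 called genes with the largest change and the most abundant gene. Per marker list they were the most abundant and the most changed called gene, and for Ptgs2 and Akr1c18 the 5 nearest profiles. Other genes were named after their values were seen. Also tried were pseudocounts of 0.1 and 0.01, the unfiltered table, a minimum mean of 5 RPKM, TMM, quantile normalization, plain limma, voom on recovered reads, the replicate block and leaving out each library. Results that need items withheld for evaluation are not reported here.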

Additional observations from a re-analysis of the deposited data

How the results depend on the processing

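None of the genes called over the whole table had an opposite call in any of the 15 other settings. Under a minimum mean of 5 RPKM, 1645 genes were called higher, against 2889, because fewer genes were tested. Of calls, 42.2% were higher, and 51.0% by voom. Beside Ptgs2, 2 genes were called higher, 1 under that minimum, 4 with no filter and 1 to 2 without each library in turn; fewer or more genes were tested there. Whether the replicate numbers pair the libraries is not known. The r of deviations was -0.13, 0.15 and 0.02 for same-numbered libraries and -0.29 to 0.26 for the others, which cannot decide it with 3 libraries per group. The replicate block gave 2827 genes higher and 3851 lower, with Abcc1 losing its call. Of pathway genes 34 were then higher, against 35. Member values kept their direction in all settings that could be run. The log2 differences of Ptgs1 and Pla2g5 went from 0.79 to 2.21 and from 3.29 to 6.09 with a pseudocount of 0.01, and to 2.28 and 6.21 by voom. Vpreb1 lost its call by voom and without OCP replicate 3 (adjusted p = 0.070 and 0.055). Trac gained one under quantile normalization, the block and without OC replicate 1 or OCP replicate 2 (adjusted p from 0.013 to 0.039).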

Other observations

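Several genes of the eicosanoid pathway stayed under the filter and are given as values only. Ptgds, the lipocalin-type synthase of prostaglandin D, had no reads in OCP and 0.416, 0.876 and 0.414 RPKM in OC. Cysltr1, a receptor of cysteinyl leukotrienes, was at 0.619, 0.421 and 0.476 RPKM in OCP and 0.789, 0.773 and 0.776 RPKM in OC, with no overlap. Abhd6, a monoacylglycerol hydrolase, was at 0.418, 0.327 and 0.278 RPKM in OCP and 1.05, 0.977 and 0.778 RPKM in OC. Ltb4r1, a receptor of leukotriene B, had overlapping groups, at 0.409 to 0.759 RPKM and 0.734 to 1.31 RPKM. Ptgis, the prostacyclin synthase, was at most 0.0235 RPKM in any library.

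The remaining marker lists held little. Of endothelial markers only Kdr was tested and not called, and of T and NK cell markers only Trac, not called. Vpreb1 was the single tested B cell marker and was called lower, from 3.80 ± 0.362 to 2.91 ± 0.254 RPKM. Of its exon length 9.7% lies opposite Top3b, which was at 3.20 to 4.01 RPKM. Among the 6 B cell markers under the filter, Ighm and Cd79a had every OC library above every OCP library. Their means in OCP and OC were 0.478 and 0.996 RPKM for Ighm and 0.00576 and 0.0385 RPKM for Cd79a. The groups of the others overlapped. Hdc encodes histidine decarboxylase and marks mast cells and basophils among other myeloid cells. It was called higher, from 0.0993 ± 0.0394 to 1.69 ± 0.130 RPKM, and passed the filter through the OC libraries alone. The other 5 markers of that list in the table stayed under the filter. Of those, Cpa3 was listed at 0 in OCP and averaged 0.0382 RPKM in OC, Gata2 had every OC library below every OCP library (0.451 and 0.296 RPKM on average), and Kit overlapped (0.150 and 0.111 RPKM).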
